A study of Mus musculus with 4 samples.

Results

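Lone CpG pairs are 2 neighbouring CpGs that lie 2 to 60 bp apart in a stretch of DNA with no other CpG in the deposited table within 150 bp of either. They give a simple setting in which to see how the methylation of a CpG goes with the distance to 1 neighbour. The rule was applied to the autosomes: adjacent listed positions were joined as 1 CpG, the spacing was counted between the first positions, and each CpG needed at least 1 cytosine with a value in all 4 samples. This gave 287420 pairs of the 504870 lone pairs listed (56.9%). Their 574840 CpGs made up 3.92% of the 14673277 autosomal CpGs with a value in all 4 samples. Between 3511 and 6628 pairs were found at each of the 59 spacings.

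The samples are germ cells from the testes of mice aged 21 days, measured by whole-genome bisulfite sequencing. The 2 control samples carried the floxed gene alone (Np95fl/fl) and the 2 knockout samples carried Stra8-Cre as well (Np95fl/fl:Stra8-Cre), a recombinase driven by a promoter that is active in premeiotic male germ cells. All 4 samples carried the floxed allele. Between 28863300 and 29616095 autosomal cytosines had a value in each sample. The reads behind each value are unknown. The protocol in the labels describes the removal of interstitial cells, and names no step for the Sertoli cells of the tubules. A methylation table holds no marker transcripts, so the cell type and the deletion were not checked here. The labels do not say that samples came from different mice, so a p reflects the spread among 4 samples, and that spread may be technical.

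Np95, also named Uhrf1, binds DNA in which only the parental strand of a CpG is methylated after replication. It brings the maintenance methyltransferase Dnmt1 to that site, and Dnmt1 copies the mark onto the new strand. Where maintenance is lacking, methylation becomes diluted as cells divide. De novo methyltransferases can add marks without a template.

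What such pairs look like in sequence is shown by 5 examples that lie before gene starts and were picked by spacing, not by their change. Each is the first in genome order at spacings of 2, 3, 10, 30 and 60 bp among pairs with all 4 cytosines valued and both CpGs at 80% or more in both controls. They come from the RefSeq promoter windows of GRCm38.p6, the same build as mm10, and run 5′ to 3′ on the strand of the gene. Capitals mark the CpGs of the pair. They lie before Gm46110 (chr9:46079701-46079704, minus strand), Ms4a4a (chr19:11375251-11375255, plus strand), Gm15755 (chr11:59376543-59376554, plus strand), E130218I03Rik (chr4:134243541-134243572, plus strand) and Tssk1 (chr16:17894050-17894111, plus strand).
Gm46110, 2 bp: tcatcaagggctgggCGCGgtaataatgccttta
Ms4a4a, 3 bp: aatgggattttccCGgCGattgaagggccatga
Gm15755, 10 bp: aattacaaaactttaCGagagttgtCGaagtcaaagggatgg
E130218I03Rik, 30 bp: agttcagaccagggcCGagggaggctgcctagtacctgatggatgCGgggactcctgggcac
Tssk1, 60 bp: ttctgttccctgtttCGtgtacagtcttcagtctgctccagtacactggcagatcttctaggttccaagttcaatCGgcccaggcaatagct
At the closest spacing the CpGs touch and spell CGCG, which reads the same on both strands. Of the 31396 promoter windows on autosomes in the RefSeq table used here, which has none on 1 autosome, 38.5% hold CGCG at least once. Tssk1 encodes a serine kinase of the testis and Ms4a4a a membrane protein of immune cells. The other 3 genes are long non-coding RNAs.

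Lone pairs were highly methylated in controls and lost a large part of this in knockouts. Their mean level was 83.3% and 87.7% in controls and 45.8% and 46.2% in knockouts. The group means were 85.5% ± 3.16 and 46% ± 0.322 (SD, n = 2 each), a difference of -39.5 points. Both knockouts were far below both controls, and the gap was many times the SD within either group. The knockouts kept 53.8% of the control level. This kept share is the mean level in knockouts over the mean level in controls. Taken for each knockout over each control, it ranged from 52.2% to 55.5%. With 2 samples against 2, the exact two-sided permutation test cannot give a p below 0.33, and the contrasts between groups given below had this value unless another is stated.

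Levels were lower in knockouts at nearly every pair. Both knockouts were below both controls at 278013 pairs (96.7%), against 81.1% of all autosomal CpGs measured in all samples. Both were above both controls at 750 pairs (0.261%), against 2.42% of all these CpGs. The pair mean averages more cytosines than 1 CpG. The first CpG of the pair alone gave 94.1% below, and lone single CpGs, whose nearest listed CpG lies over 150 bp away, gave 93.8%. The kept share of all autosomal CpGs was 53.8% as well, from a lower control mean of 72.7%.

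The kept share fell as the CpGs of a pair lay further apart. Pairs 2 to 10 bp apart had levels of 85.0% and 88.5% in controls and 49% and 49.3% in knockouts, and kept 56.7%. Pairs 51 to 60 bp apart had 81.9% and 86.9% in controls and 43.5% and 44.1% in knockouts, and kept 51.9%. The classes between them followed in order, with 54.6% at 11 to 20 bp, 53.3% at 21 to 30 bp, 52.7% at 31 to 40 bp and 52.3% at 41 to 50 bp. Close pairs were also higher than far pairs in controls, by 3.08 and 1.67 points, but by more in knockouts, 5.48 and 5.27 points. The knockout samples do not overlap the controls in this contrast, which differed by 3.0 points between groups.

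**Figure D1:**
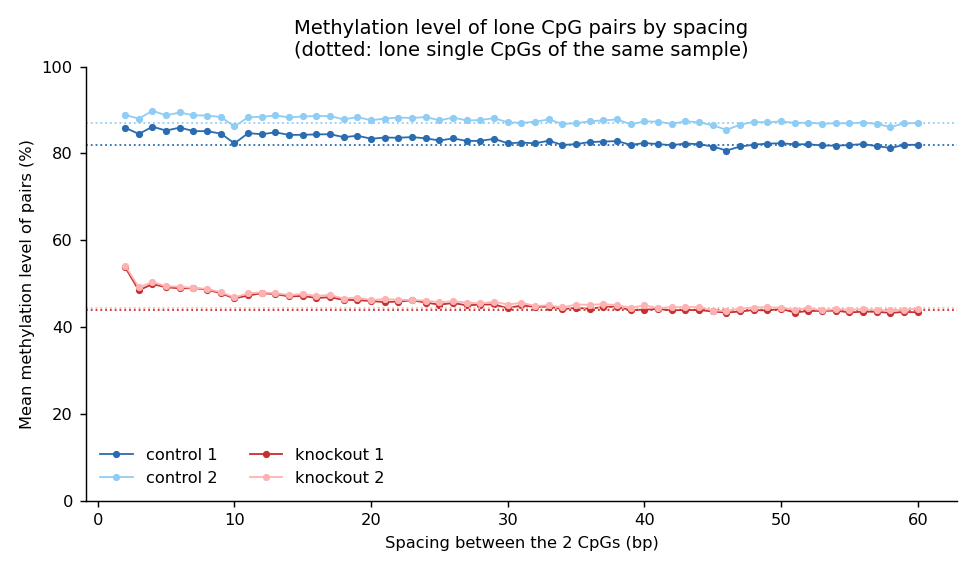
Mean methylation level in percent (y axis) of lone pairs at each spacing in bp (x axis), 1 line per sample; dotted lines give lone single CpGs of the same sample. The controls fall gently with spacing, and the knockouts start at 53.8% and 54.2% at 2 bp and end at 43.4% and 44.2% at 60 bp.

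On a ratio scale the close class stood above the far class in every sample, and most in knockouts. The log2 ratio of the level at 2 to 10 bp over that at 51 to 60 bp was 0.05 and 0.03 in controls and 0.17 and 0.16 in knockouts. The contrast between groups was 0.13. It depends on this scale: on log2 odds of the mean level (added after seeing the data) close minus far was 0.31 and 0.21 in controls and 0.31 and 0.30 in knockouts. There the contrast was 0.05 and the groups overlapped (exact permutation p = 0.667). Each of the 19 autosomes gave a higher kept share at 2 to 10 bp (from 56% on chromosome 10 to 57.3% on chromosome 17) than at 51 to 60 bp (from 51.4% on chromosome 8 to 52.6% on chromosome 19). Autosomes share the same 4 samples and are not replicates. Without the pairs 2 bp apart, an alternative added after seeing the data, the contrast was 0.11.

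By kept share, CGCG pairs, 2 bp apart, stood apart from all other spacings. Their 4824 pairs were at 85.9% and 88.9% in controls, within the range of other close spacings. In the knockouts they were at 53.8% and 54.2%, the highest level of any spacing in both. They kept 61.8%, with knockout over control ratios from 60.5% to 63.1%. The next spacing, 3 bp, had 84.5% and 88.0% in controls and 48.5% and 49.1% in knockouts. It kept 56.6%, with ratios from 55.1% to 58.2%, so the ranges at 2 and 3 bp did not overlap. On each of the 19 autosomes the share kept at 2 bp (60.2% to 62.9%) exceeded that at 3 bp (55.5% to 58.6%). Pairs 4 bp apart had higher control levels than CGCG pairs, 86.2% and 89.8%, and kept 57.0%.

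**Figure D2:**
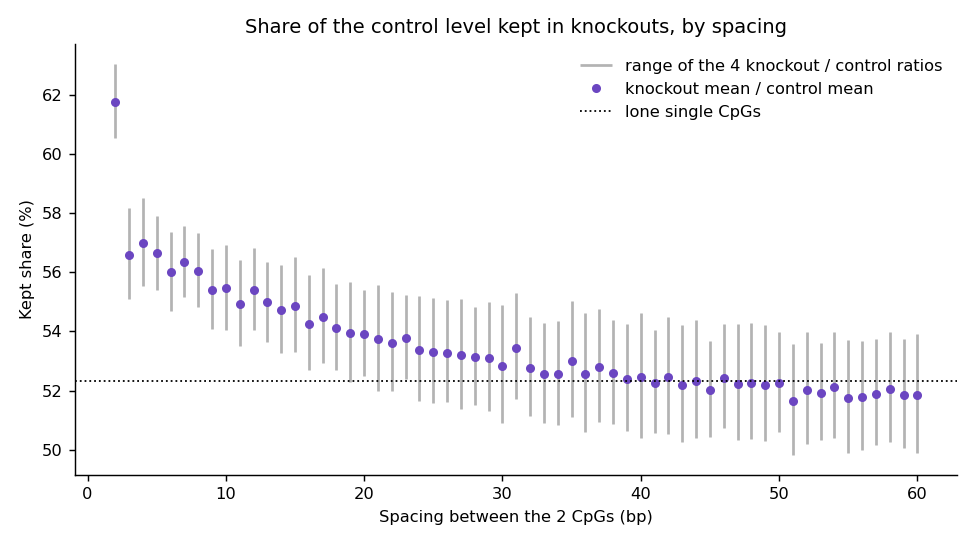
Kept share in percent (y axis, not starting at 0) at each spacing in bp (x axis); points are knockout mean over control mean, grey bars the range of the 4 ratios of 1 knockout over 1 control, and the dotted line lone single CpGs. The point at 2 bp, 61.8%, lies above a slope that runs from 56.6% at 3 bp to 51.9% at 60 bp.

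Each spacing was then compared with the average over all spacings by limma, on log2 levels centred in each sample, with Benjamini-Hochberg adjustment over the 59 spacings. The kept share was called higher at 17 spacings (28.8% of the 59), which are all spacings from 2 to 18 bp, and lower at 30 (50.8%), which are all spacings from 30 to 60 bp except 31 bp. At 2 bp it was higher by 0.21 on the log2 scale (SE 0.00612), a ratio of 1.15. At 4 and 5 bp it was higher by 0.09 and 0.08, and at 51, 55 and 56 bp, the spacings with the lowest kept shares (51.6%, 51.7% and 51.8%), it was lower by 0.05 each. Here limma used 1 variance for all spacings (infinite prior degrees of freedom). All spacings share the same 4 samples, so the calls are not independent of each other. On the spread of each spacing alone, limma called 34 spacings, 14 higher and 20 lower, with an adjusted p of 0.047 at 2, 4, 5, 51, 55 and 56 bp. The split of calls depends on the centre: with each sample centred on its lone single CpGs (added after seeing the data), 31 spacings were called higher and 4 lower. It depends on the scale too. On log2 odds of methylation 3 were called, all higher, at 2 bp (0.24), 10 bp (0.18) and 46 bp (0.12). On this scale 2 bp thus stood less apart from the other spacings. Of the 47 spacings called on log2 levels, 23 changed sign on log odds. Among them 46 bp went from -0.03, called lower, to 0.12, called higher, and 4 bp turned to -0.05.

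The decline was not even from 1 spacing to the next, and 35 of 58 steps went down. Over the 59 spacings the rank correlation of kept share with spacing was -0.98, a description of points that share 4 libraries. After removal of a cubic curve in log spacing, the kept share of spacings 10 bp apart, about the length of a helix turn, had a correlation of 0.02 (n = 49). For spacings other distances apart it ranged from -0.29 (9 bp) to 0.21 (6 bp). With values this scattered, 1 correlation can neither show nor exclude such a rhythm. Some spacings were listed more often than their neighbours. At 46 bp 9114 pairs were listed, 1.21 times the mean of the 4 nearest spacings, and at 31 bp 9916 pairs, 1.14 times that mean. Pairs 46 bp apart had the lowest control levels, 80.7% and 85.4%, but a kept share of 52.4%, close to the 52.2% of the nearest spacings. Pairs 31 bp apart kept 53.4%, against 52.8% at their nearest spacings. Repeats were not analysed here.

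Pairs were next compared with CpGs that have no near neighbour. The 1058395 single CpGs had levels of 82.0% and 87.0% in controls and 43.9% and 44.5% in knockouts, and kept 52.3%. The kept share of pairs was above this value at 42 of 59 spacings, first fell to or below it at 41 bp and was last above it at 46 bp. Lone pairs 61 to 150 bp apart (216726) kept 51.6%, with 81.8% and 87.1% in controls and 43.3% and 43.9% in knockouts. On the log2 scale pairs exceeded single CpGs by 0.022 and 0.013 in controls and by 0.059 and 0.056 in knockouts. They exceeded the wider pairs by 0.025 and 0.011 in controls and by 0.081 and 0.073 in knockouts. In both contrasts the knockouts were above both controls on this scale. Neither contrast was computed on log2 odds, the scale on which the groups overlapped for close minus far pairs.

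Close pairs kept more than far pairs in the 2 upper classes of control level, and no order by spacing was seen in the lowest. Pairs were classed on 1 control and the kept share was taken against the other control, so that noise in the class did not enter the ratio. Among pairs at 80% or more in control 1 (213623), CGCG pairs went from 93.5% in control 2 to 56.9% and 57.2% in knockouts and kept 61%. Pairs of this class 2 to 10 bp apart kept 55.9%, and those 51 to 60 bp apart 51%. With the controls exchanged the shares were 62.7%, 57.7% and 53.3%. Pairs between 20% and 80% in control 1 kept 59.1% at 2 bp, 53.4% at 2 to 10 bp and 48.5% at 51 to 60 bp. Pairs under 20% in control 1 were few (3056), at 15.6% in control 2 and 13.9% and 12.2% in knockouts. Their kept share was 83.3% at 2 to 10 bp, 85.5% at 21 to 30 bp and 83.0% at 51 to 60 bp, and 95.7%, 105.6% and 93.4% with the controls exchanged. The 61 of them 2 bp apart were at 13.6% in control 2 and 13.4% and 12.2% in knockouts.

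The spread over pairs shows the same shift. In knockout 1 the median pair 2 bp apart was at 55.0% and the middle 50% of pairs lay between 43.6% and 64.8%. In the same sample the median pair 51 to 60 bp apart was at 43.8%, with the middle 50% between 34.8% and 52.5%. Of CGCG pairs 4.13% and 4.98% were at 80% or more in knockouts, against 0.201% and 0.264% of pairs 51 to 60 bp apart. In the controls these shares were 80.9% and 86.0% at 2 bp and 70.3% and 83.6% at 51 to 60 bp.

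The CpGs of a pair agreed best when close. Agreement was measured in each sample by the Pearson correlation of the 2 CpG levels across pairs, as a description without a p across pairs. At 2 to 10 bp it was 0.71 in both controls and 0.69 and 0.70 in knockouts, values that hardly differ by this measure. At 51 to 60 bp it was 0.54 and 0.59 in controls and 0.39 and 0.40 in knockouts. Within a sample the drop from close to far was 0.17 and 0.12 in controls and 0.30 and 0.29 in knockouts (contrast 0.15). By this measure, in which close CpGs can share reads, both knockouts lost more agreement with distance. Values without shared reads are given below.

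Over all pairs the correlation was 0.63 and 0.65 in controls and 0.54 and 0.55 in knockouts. The sign of this overall contrast depends on the measure: Spearman's rank correlation was 0.43 and 0.39 in controls and 0.53 and 0.54 in knockouts. This rank correlation was higher in knockouts at close and far spacings too. It was 0.53 and 0.46 in controls against 0.68 in both knockouts at 2 to 10 bp, and 0.33 in both controls against 0.38 and 0.39 at 51 to 60 bp. The drop with distance had the same direction by rank correlation, with 0.19 and 0.13 in controls and 0.30 in both knockouts. In absolute terms the CpGs of a pair differed by 10.1 and 8.73 points in controls and by 11.9 and 11.7 points in knockouts. This difference grew from 9.71 and 9.56 points at 2 to 10 bp to 13.7 and 13.5 points at 51 to 60 bp in knockouts, and from 8.46 and 7.67 to 11.7 and 9.90 points in controls.

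**Figure D3:**
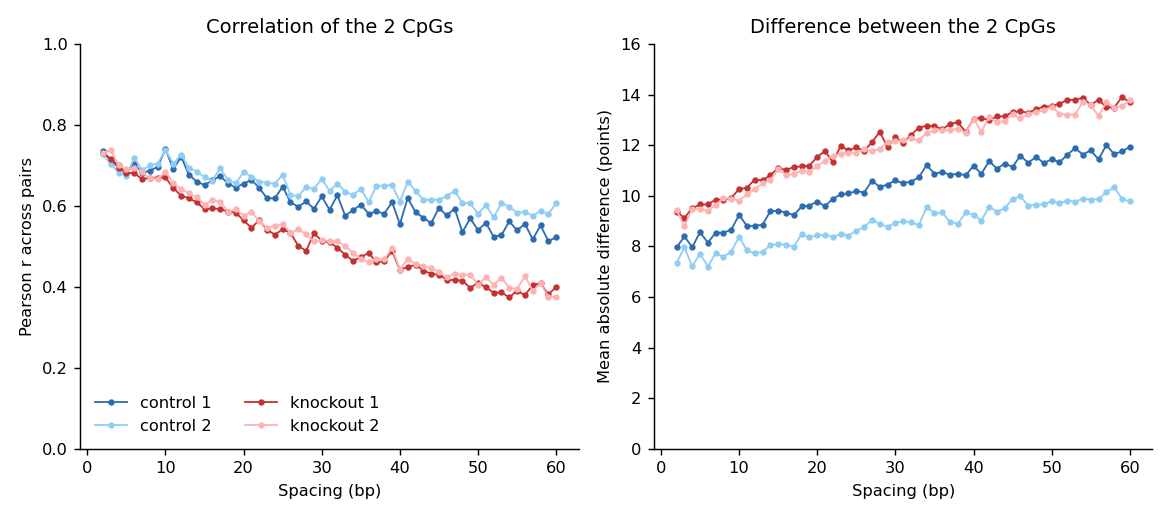
Left, Pearson correlation of the levels of the 2 CpGs across pairs (y axis) at each spacing in bp (x axis); right, mean absolute difference between them in percentage points; 1 line per sample. The 4 samples start together near 0.7 and the knockouts fall further, to 0.40 and 0.37 at 60 bp against 0.52 and 0.61 in controls.

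Pairs were also counted by state. A CpG was counted as upper at 50% or more. This cut lies near the median of knockout pairs 2 to 10 bp apart (49.8% and 50%). It lies far under the median of control pairs of this class (89.3% and 93.2%). The split share thus depends on where the cut falls and does not measure a difference in agreement between groups. In knockouts 38.8% and 39.6% of pairs 2 to 10 bp apart had both CpGs upper, 37.1% and 36.3% had neither, and 24.1% and 24.0% were split. Far pairs, 51 to 60 bp apart, were split in 34.7% and 35.4%, both upper in 19% and 19.5%, and neither in 46.3% and 45.1%. CGCG pairs were split in 20.6% and 21.0%, and both upper in 53.3% in each knockout. In controls 3.46% and 3.25% of CGCG pairs and 5.35% and 4.35% of far pairs were split.

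CpGs that lie close can be covered by the same reads. How often this happened is not in the table, and its part in the values within a sample was not tested. The first CpG in 1 replicate was also compared with the second CpG in the other replicate of the group, which share no reads. This correlation was divided by that of the same CpG between replicates, so that 1 means that the neighbour predicts a CpG as well as its own repeat does. In controls the ratio was 0.83 at 2 to 10 bp and 0.72 at 51 to 60 bp. In knockouts it was 0.76 at 2 to 10 bp, 0.68 at 11 to 20 bp, 0.60 at 21 to 30 bp, 0.55 at 31 to 40 bp, 0.51 at 41 to 50 bp and 0.48 at 51 to 60 bp. At 2 bp it was 0.85 in controls and 0.82 in knockouts. Each ratio rests on 1 pair of replicates in each group, so the difference between groups was not tested. Before division the knockout correlations across replicates were 0.30 at 2 to 10 bp and 0.18 at 51 to 60 bp. These were well under the 0.69 and 0.70, and 0.39 and 0.40, within samples. The control correlations across replicates were 0.63 and 0.52 in these classes, a fall with distance of similar size to that in knockouts. A single CpG repeated itself between knockout replicates with a correlation of 0.40 and 0.38 in these classes, against 0.75 and 0.73 in controls.

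Pairs that were high in controls were also compared across replicates. The 156949 pairs with both CpGs at 80% or more in both controls were at 49.9% and 50.2% in knockouts. This class was set on the control values, so only its knockout values are described. Within it the correlation of a CpG with its neighbour across knockout replicates was weak, at 0.17 at 2 bp, 0.10 at 21 to 30 bp and 0.07 at 51 to 60 bp. Relative to the same CpG between replicates, itself at 0.26 over this class, the ratio was 0.71 at 2 bp (3241 pairs), 0.66 at 2 to 10 bp, 0.42 at 21 to 30 bp and 0.29 at 51 to 60 bp. CGCG pairs of this class were at 57.4% and 57.7% in knockouts, pairs 3 bp apart at 52.2% and 52.8%, and pairs 51 to 60 bp apart at 47.8% and 48.1%.

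The strands of a pair were then compared. Of all pairs, 91567 (31.9%) had a value for each of the 4 cytosines, the C of both CpGs on both strands. Reads of the 2 strands are always separate, while cytosines on the same strand can share a read. On the same strand the CpGs of a pair correlated at 0.63 and 0.66 in controls and at 0.56 and 0.57 in knockouts. Across strands, top of 1 CpG against bottom of the other, they correlated at 0.54 and 0.60 in controls but at 0.23 and 0.22 in knockouts. The fall of 0.34 across strands was larger than that of 0.08 on the same strand. The same CpG also correlated less between replicates in knockouts, at 0.39 against 0.74 in controls over all pairs. The strand values were not divided by this repeat correlation, so the gap between 0.34 and 0.08 is not shown to concern strands.

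**Figure D4:**
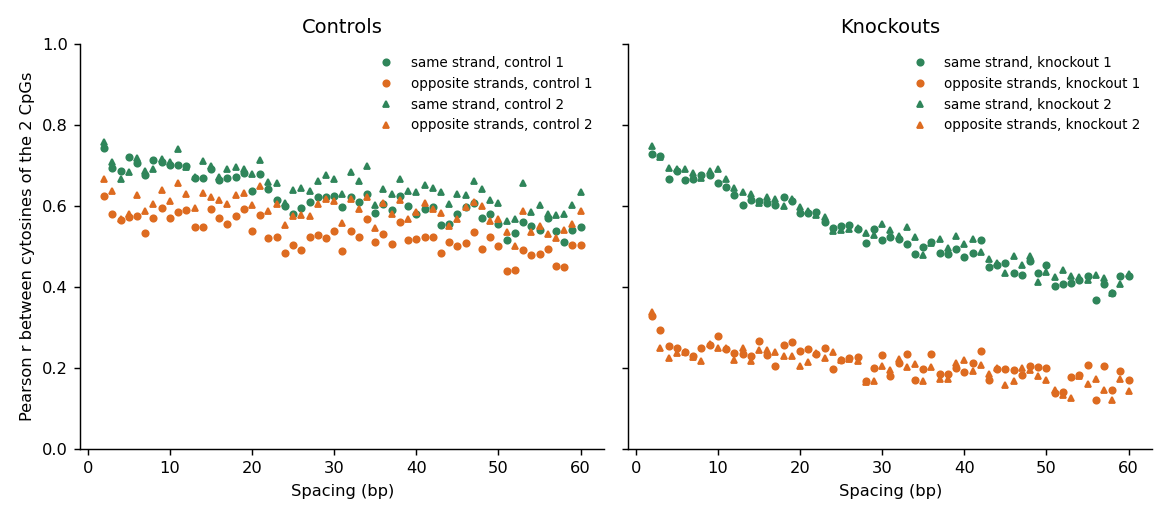
Pearson correlation across pairs (y axis) between cytosines of the 2 CpGs on the same strand (green) and on opposite strands (orange) at each spacing in bp (x axis), for controls (left) and knockouts (right), with circles for replicate 1 and triangles for replicate 2. Both colours lie close together in controls, and in knockouts the opposite-strand values are highest at 2 bp, at 0.33 and 0.34.

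Within knockout samples a cytosine correlated more with the next CpG on its own strand than with the other strand of its own CpG. Only the first of these values can hold shared reads. The strands of 1 CpG correlated at 0.66 and 0.73 in controls and at 0.33 and 0.31 in knockouts. At 2 to 10 bp the neighbour on the same strand correlated at 0.68 and 0.70 in knockouts, at 51 to 60 bp at 0.41 and 0.42. In controls the order was not the same in both samples at 2 to 10 bp, with 0.71 and 0.70 on the same strand against 0.67 and 0.74 for the strands of 1 CpG. The part of shared reads in the same-strand values was not tested. Where no read is shared, the order was the other way in knockouts at 2 to 10 bp. The neighbour across strands correlated at 0.27 and 0.25, and the strands of 1 CpG at 0.32 and 0.30. Across strands the knockout correlation went from 0.27 and 0.25 at 2 to 10 bp to 0.17 and 0.15 at 51 to 60 bp. The control correlation across strands went from 0.58 and 0.61 to 0.47 and 0.54, a fall of similar size.

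The level in knockouts differed most by the position of the cytosine at spacings of 2 and 3 bp. Each pair has 2 outer cytosines, the top-strand C of the left CpG and the bottom-strand C of the right CpG, and 2 inner ones. At CGCG pairs (1528 with all 4 valued) the outer cytosines were at 86.0% and 88.9% in controls and 54.2% and 54.8% in knockouts. The inner cytosines were at 85.3% and 88.6% in controls and 51.7% and 52.3% in knockouts. Inner minus outer was -0.67 and -0.24 points in controls and -2.44 and -2.52 points in knockouts, a contrast of -2.03 points (exact permutation p = 0.33). At 3 bp (1964 pairs) it was 0.41 and 0.39 points in controls and -1.03 and -1.25 points in knockouts. Both knockouts were also below both controls at 5, 7 and 10 bp. The values there were 0.22 and -0.09, 0.21 and 0.09, and 0.38 and 0.35 points in controls. In knockouts they were -0.31 and -0.58, -0.24 and -0.40, and 0.10 and 0.26 points. At 6 bp the order of the groups was the other way, with 0.19 and 0.04 points in controls and 0.53 and 0.27 points in knockouts. At 4, 8 and 9 bp the groups overlapped. In the class from 11 to 20 bp the values were 0.37 and 0.15 points in controls and 0.12 and 0.21 points in knockouts, and the groups overlapped (exact permutation p = 0.667). Small differences without overlap were also seen further apart. At 21 to 30 bp the values were 0.16 and 0.09 points in controls and -0.12 and -0.11 points in knockouts, and at 51 to 60 bp -0.04 and 0.11 points against -0.18 and -0.19 points. The kept share at CGCG pairs was 62.3% for outer and 59.8% for inner cytosines, so both stood above the 56.8% and 55.2% at 3 bp.

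**Figure D5:**
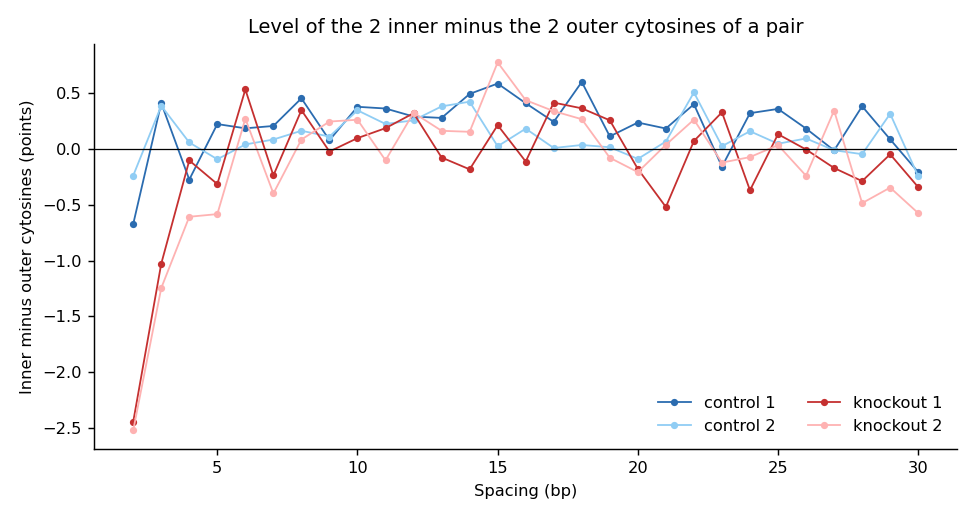
Mean level of the 2 inner minus the 2 outer cytosines in percentage points (y axis) at spacings of 2 to 30 bp (x axis), for pairs with all 4 cytosines valued, 1 line per sample. Both knockouts lie furthest under both controls at 2 and 3 bp, at -2.44 and -2.52 points for 2 bp. They also lie under both controls at some other spacings, among them 5, 7 and 10 bp.

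Pairs inside genes and outside them showed the same order by spacing. Inside annotated genes (146510 pairs, 51%) the level was 84.9% and 89.4% in controls and 47.2% and 47.8% in knockouts, a kept share of 54.5%. Outside genes it was 81.6% and 86.0% in controls and 44.3% and 44.6% in knockouts, a kept share of 53.0%. CGCG pairs kept 61.8% inside and 61.7% outside genes. Pairs 2 to 10 bp apart kept 57.2% inside and 56% outside, and pairs 51 to 60 bp apart 52.7% and 51.1%. The kept share over all spacings varied little between chromosomes, from 53.3% on chromosome 18 to 54.2% on chromosome 12.

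The promoter table used here has no windows on 1 of the 19 autosomes. On the others 523 pairs lay wholly inside a promoter window, from 250 bp before to 50 bp after a gene start. Their level was 76.8% and 82.1% in controls and 40.8% and 41.9% in knockouts, and they kept 52.0%. Of these, 516 have CG at both positions of the pair in the RefSeq sequence. The table listed 99.1% of the 395568 CpGs in all promoter windows. Lone pairs were chosen for having no listed neighbour, so this share does not give the share unlisted around them. Among the 254 of them with all 4 cytosines valued, 242 had both knockouts below both controls, which is under the 98.0% of all lone pairs with 4 valued cytosines. The 128 with both CpGs at 80% or more in both controls kept a median of 54.0%, from 34.0% to 76.0%. This class was set on the same controls by which its kept share is divided. Noise in the class thus enters these values, and they are not compared with those of other classes.

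Single pairs were then picked by their values, so they are described without a test. The largest falls were upstream of Gm34455 (chr17:26491040-26491101, 60 bp), Sptbn1 (chr11:30219945-30219978, 32 bp) and Gm34878 (chr7:118061512-118061555, 42 bp). Sptbn1 encodes a beta spectrin of the membrane skeleton, and its pair lies inside the gene before an internal start, as does that of the long non-coding RNA gene Gm34455. Among the high pairs, the smallest falls were at Gm15348 (chr8:12719099-12719108, 8 bp, after the gene start), Ifi208 (chr1:173673597-173673613, 15 bp), an interferon-inducible gene, and the CGCG pair of Gm46110 shown above. The largest differences between the CpGs of a high pair in knockouts were at Gm33057 (chr4:4523527-4523564, 36 bp), Gm34930 (chr1:90255690-90255696, 5 bp) and Gm39384 (chr9:83573178-83573204, 25 bp), all long non-coding RNA genes. Sequences are given for those upstream of a start, on the strand of the gene, with the CpGs in capitals, to show what lies between CpGs that fell far, fell little or came apart.
Gm34455: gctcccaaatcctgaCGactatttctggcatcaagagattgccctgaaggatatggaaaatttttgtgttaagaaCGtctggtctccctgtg
Sptbn1: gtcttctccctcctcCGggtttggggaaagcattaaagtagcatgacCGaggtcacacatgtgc
Gm34878: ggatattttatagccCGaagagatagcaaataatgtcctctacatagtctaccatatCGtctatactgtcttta
Ifi208: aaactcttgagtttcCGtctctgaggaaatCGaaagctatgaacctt
Gm39384: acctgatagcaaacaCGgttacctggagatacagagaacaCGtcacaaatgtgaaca
The Gm34455 pair went from 81.5% and 83.6% in controls to 18.7% and 22.4% in knockouts, a fall by 62.0 points. At Sptbn1 the controls were at 80.8% and 97.2% and the knockouts at 26.8% and 31.1%. The Gm34878 pair was at 94.2% and 96.8% in controls and at 31.6% and 42.5% in knockouts. All 3 have spacings of 32 bp or more, and their choice required both knockouts below both controls.

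The pairs that fell least, picked among high pairs only, had spacings of 8, 15 and 2 bp. Pairs of both kinds were chosen by their falls and under different filters, so their spacings do not test the trend with spacing. Gm15348 was at 90.5% and 98.1% in controls and at 76.1% and 67.3% in knockouts. Ifi208 went from 92.7% and 89.2% to 60.7% and 71.4%, and its knockouts differed by more than its controls. The CGCG pair of Gm46110 had levels of 95.0% and 93.8% in controls and 70.4% and 63.8% in knockouts, a kept share of 71.1%. The far pair of Tssk1, printed with it, was at 99.1% and 93.4% in controls and 44.7% and 48.1% in knockouts. It kept 48.2%. Of the examples printed between them, Ms4a4a (3 bp) kept 56.4%, Gm15755 (10 bp) 51.9% and E130218I03Rik (30 bp) 66.9%. The kept shares of these examples thus did not follow the order of spacing.

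Some pairs came apart although both CpGs were high in controls. At Gm39384 the left CpG on the plus strand (the second in the printed sequence) was at 91.4% and 94.7% in controls and stayed at 71.3% and 65.5% in knockouts. Its neighbour 25 bp away was at 91.4% and 90.5% in controls and fell to 35.8% and 42.0%. At Gm33057 the left CpG was at 55.6% and 56.3% in knockouts and the right at 27.0% and 23.2%, 36 bp apart. At Gm34930 the CpGs are only 5 bp apart, and the left was at 75.2% and 83.9% in knockouts and the right at 39.0% and 60%. Both knockouts gave the same order at each of these pairs, which the choice of pairs required.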

How the data were processed

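Per the labels, libraries were made by PBAT (adaptors added after bisulfite treatment), and per the submitters' processing notes the build was mm10. Not given in the sources used here are aligner and caller. The deposited table holds methylated reads in percent at CpG cytosines, with no value at some in each sample, and its title names a minimum of 10 reads. Depth is not in the table, so all values had equal weight, no intervals were computed and no other minimum coverage could be tried.

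A CpG was the mean of its cytosines valued in all 4 samples, and a pair the mean of its CpGs. Of the pairs, 95.0% had both CpGs listed with 2 cytosines. Elsewhere the strand of a lone position is unknown and the spacing can be off by 1 bp. Spacings were tested with limma 3.58.1 (R 4.3.3) on log2 of the mean percent, centred per sample on the mean over spacings. Contrasts of 1 value per sample used the exact two-sided permutation test. Alternatives were the lone distance (100 and 250 bp), all 4 cytosines, odd and even autosomes, other classes and scales, leaving out each sample, and a replicate block. Spacings named are those with the 3 highest and 3 lowest kept shares and those called. Pairs named are, in promoter windows, the 3 largest falls, the 3 smallest falls and the 3 largest differences among high pairs. Scripts were tested on simulated data. The pairs, classes and tests were chosen with earlier results of these data known. Other tools were SciPy 1.17.1, NumPy 2.4.6, Matplotlib 3.10.9, pandas 2.3.3 and Python 3.11.15.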

Additional observations from a re-analysis of the deposited data

How the results depend on the processing

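The 8 contrasts of 2 samples against 2 cannot pass a threshold, so only their direction was compared. By Spearman's rank correlation the contrast in agreement over all pairs turned from -0.09 to 0.12, and it was -0.14 with a lone distance of 100 bp and -0.04 with 250 bp. On log2 odds limma called 3 spacings, 3 higher and 0 lower, in place of 47, and 23 of the 47 changed sign, 46 bp from a lower to a higher call and 4 bp from 0.09 to -0.0532. The close minus far contrast fell from 0.13 to 0.05, with groups that overlap. On that scale the calls at 5, 51, 55 and 56 bp were lost (adjusted p = 0.635, 0.296, 0.635 and 0.331 by limma). Centred on lone single CpGs, 31 spacings were higher and 4 lower. Leaving out 1 sample gave 43 to 47 called spacings and a close minus far contrast of 0.11 to 0.14. With the replicate block limma called 51 spacings, 18 higher and 33 lower. Over pairs, the replicate differences of the groups correlated at 0.01, so same-numbered samples did not vary together from pair to pair. A shift common to all pairs would not show in this value, so whether the numbers pair the samples is unknown. Values of single pairs rest on an unknown number of reads.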

Other observations

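Isolated groups of more than 2 CpGs kept more methylation still, where the CpGs lay close. Groups were taken with no other listed CpG within 150 bp and all CpGs valued, and are described with no test. With each neighbour at most 20 bp away, single CpGs kept 52.3%, groups of 2 kept 55.6% (111534 groups), groups of 3 kept 57.2% (16841), groups of 4 kept 58.5% (3433) and groups of 5 kept 61.2% (1006). The control levels of these groups lay between 84.5% and 87.3%, while the knockout means rose from 44.2% for single CpGs to 52.0% for groups of 5. With neighbours up to 60 bp away the rise was small, from 53.8% for groups of 2 to 54.3% for groups of 5.

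Inner CpGs of such groups kept more than those at the ends. With neighbours at most 20 bp away the inner CpG of groups of 3 kept 58.1% and the end CpGs 56.7%. In groups of 5 the shares were 62.1% and 59.9%. With neighbours up to 60 bp away groups of 5 gave 54.9% and 53.3%.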
